A study of Mus musculus with 4 samples.

Results

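Chromatin immunoprecipitation sequencing of RNA polymerase II (Pol II) was examined in 4 libraries of mouse brain endothelial cells (ECs). A promoter peak was called in every library at 486 protein-coding genes. These genes were selected by the presence of a called peak: in each library an interval of the deposited peak list had to overlap the 1500 bp on either side of an annotated transcription start site (TSS) of the gene in mm10. They were 486 of 21864 protein-coding genes, or 2.22%, and they carried 485 distinct symbols because Ptp4a1 is annotated under 2 gene identifiers. A further 2385 genes had a promoter peak in 3 libraries, 5514 in 2, 7921 in 1 and 5558 in none. Because peak presence chose the 486 genes, the peak values below describe them and test nothing about why they were chosen.

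The libraries came from old WT Cre mice (2 libraries) and from young EC-K4KO mice (2 libraries), in which Klf4 had been deleted from ECs. Per the labels and the methods of the study, old WT Cre mice carry the VE-cadherin (Cdh5) CreERT2 driver without the floxed Klf4 alleles, EC-K4KO mice carry both, and both lines were on a C57BL/6J background. Tamoxifen was given to both at 8 wk of age. The study's cohorts were aged 4 to 6 mo (young) and 20 to 23 mo (old), and each library was made from 200000 sorted cells. The driver limits the deletion to cells that use the VE-cadherin promoter. Below, the libraries are called old 1, old 2, young 1 and young 2 by group and replicate number, and values given as a series of 4 follow that order. Genotype and age changed together, so their parts cannot be told apart, and nothing in the labels says whether a library came from 1 mouse or several.

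Pol II gathers at the start of genes, where it assembles with general factors, begins transcription and often pauses shortly downstream before it enters the gene body. A ChIP-seq peak at a promoter is taken to mark bound polymerase and does not by itself distinguish paused from elongating enzyme. These peak lists were called with no control library, so a called interval does not by itself establish bound polymerase. Brain ECs line the vessels of the blood-brain barrier and are known for tight junctions, few transport vesicles and dedicated nutrient carriers.

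The libraries differed widely in how many promoters they called. A promoter peak was present at 5598 genes (25.6%) in old 1, 5353 (24.5%) in old 2, 2330 (10.7%) in young 1 and 14767 (67.5%) in young 2. The peak caller counted between 22705175 and 65734178 fragments per library, and the library with the fewest fragments, young 2, had the most peaks. Library young 1 set the size of the common group: 2018 genes had a promoter peak in the 3 libraries other than this one, against 508 when young 2 was the library left out. The label of the cells could not be checked on the common promoters. None of 20 endothelial markers had a promoter peak in all 4 libraries, where the share over all protein-coding genes was 2.22%, so a count of 0 says little. In the libraries in the order above, 6, 7, 1 and 12 of the 20 had one, beside 25.6%, 24.5%, 10.7% and 67.5% of all genes. Cdh5 (VE-cadherin) had a promoter peak in 3 libraries, Cldn5 (claudin-5, the main claudin of the barrier) in 1 and Pecam1 (an adhesion molecule of endothelial junctions) in 0. None of the 12 pericyte and smooth muscle, 10 astrocyte, 12 neuron, 10 oligodendrocyte and 12 microglia and macrophage markers was common to all 4 either. Klf4, the targeted gene, was not among the 486, as it had a promoter peak in 2 libraries, both young EC-K4KO, which does not check the labels because a peak is not a transcript.

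The common promoters were sorted into 2 kinds by whether their peaks lay at repeats, and example sequences of each are shown. At 93 of the 486 genes the strongest promoter peak was repetitive in at least 1 library, which here means that over 50% of its bases were soft-masked as repeats in the reference or that the 50-base words around its summit had a median of more than 1 copy in the assembly. The other 393 genes had no such peak. Ranked by the weakest of a gene's 4 within-library percentiles of −log10 q, and among genes whose 4 intervals shared at least 1 base, the first 6 genes were Gm10800, Gm21738, Gm10722, Gm11168, Gm10717 and Gm10718, all predicted genes at repeats. A 12-base run, in capitals below, occurred in a stretch taken from the shared interval of each of these 6 genes. The first 3 stretches are shown, 5′ to 3′ on the strand of the gene, from GRCm38.p6, outside annotated exons, to show what the highest-ranked common signal sits on.
Gm10800: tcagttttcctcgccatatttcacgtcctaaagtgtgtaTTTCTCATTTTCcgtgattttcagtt
Gm21738: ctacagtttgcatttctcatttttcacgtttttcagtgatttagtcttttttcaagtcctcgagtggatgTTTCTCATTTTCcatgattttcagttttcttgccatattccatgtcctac
Gm10722: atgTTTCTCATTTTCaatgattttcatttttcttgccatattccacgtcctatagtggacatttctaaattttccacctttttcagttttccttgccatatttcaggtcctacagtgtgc
These lie at chr2:98666670-98666734 (minus strand, inside the gene), chr14:19417595-19417714 (minus strand, inside the gene) and chr9:3000716-3000835 (plus strand, just upstream of the gene). Their GC contents were 36.9%, 35.0% and 35.0%, and 100%, 83.3% and 97.5% of their bases were soft-masked.

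Among common promoters not at repeats the same ranking, applied after the values had been seen, was led by Sfi1, then 3110070M22Rik and Tmem267, which share a promoter, Gm45844, Hjurp, 4931408C20Rik and Igfbp7. Stretches of 3 of these shared intervals are shown as examples of common signal outside repeats, picked after the values had been seen, and the first-ranked interval, at Sfi1, is not among them. Each lies inside the gene and outside annotated exons, and capitals mark a GC box, the only searched motif found in them.
Tmem267: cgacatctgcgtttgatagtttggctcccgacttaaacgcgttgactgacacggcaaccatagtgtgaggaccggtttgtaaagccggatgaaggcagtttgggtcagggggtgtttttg
Hjurp: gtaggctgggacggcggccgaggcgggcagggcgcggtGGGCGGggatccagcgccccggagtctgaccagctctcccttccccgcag
Igfbp7: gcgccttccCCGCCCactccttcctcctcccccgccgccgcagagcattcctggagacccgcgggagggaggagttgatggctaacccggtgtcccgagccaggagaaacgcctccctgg
They are at chr13:119489035-119489154 (plus strand), chr1:88277286-88277373 (minus strand) and chr5:77407410-77407529 (minus strand), with GC contents of 51.7%, 77.3% and 70.0%. The Tmem267 stretch held no searched motif.

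The tallest common peaks lay in the repeats. At Gm10800, a predicted gene on chromosome 2, the pileup at the summit, the number of fragments covering it, was 9576110, 4201070, 1183310 and 393164. Scaled to 1000000 fragments per library this was 145700, 153000, 33590 and 17320, so both old WT Cre libraries stood above both young EC-K4KO libraries there. These pileups exceed by far the 780 to 784 bp that the intervals span, although the methods state that duplicates were removed, and the part of duplicates or of unplaced repeat copies in them was not tested. Its fold enrichment, the authors' ratio to background nearby in that library, was nearly level, at 37.5, 39.2, 39.7 and 40.9. The same order of the groups was seen at Gm21738 on chromosome 14, with 14040 and 17150 against 4058 and 2257 scaled fragments. At Asmt, also counted at repeats, the order was the opposite, with 5.74 and 5.50 against 18.1 and 22.1. The first and last of 9 common genes on chromosome 9 spanned positions 3000922 to 3038316, with no other protein-coding gene annotated between them (Gm10720, Gm10722, Gm10718, Gm10719, Gm10717, Gm10715, Gm11168, Gm10721 and Gm17535). Their peaks were among the widest: at Gm10722 the intervals spanned 1789, 1779, 1519 and 1511 bp. Gm10800, Gm21738, Gm10722, Gm11168 and Gm10718 had the highest median scaled pileup, and Gm10722, AW822073, Gm11168, Gm10717 and Gm10718 the widest median peaks. The ranking to place 15 was completed by Asmt (the last enzyme of melatonin synthesis, on X), Sspn (sarcospan), Sfi1 (a centrin-binding protein of the centrosome) and AW822073, of which only Sfi1 was not counted at repeats. At Sfi1 the pileups were 892, 517, 529 and 723, above every other common promoter not at repeats, of which the highest in each library had 104 (4931408C20Rik), 73 (Gm45844), 74 (4931408C20Rik) and 95 (Gm45844). The fold enrichments at Sfi1 were only 4.42, 6.72, 4.10 and 9.05, below the 13.8, 17.5, 12.4 and 19.5 at Gm45844. Copies were counted in the assembly alone, and whether copies absent from it raised the pileup at Sfi1 was not tested.

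Outside repeats the first-ranked common promoters below Sfi1 had pileups of at most 104. At Hjurp, which encodes the chaperone that loads centromeric histone, the fold enrichments were 3.52, 6.28, 3.398 and 5.67. All 4 intervals covered the same 439 bp. At Igfbp7, which encodes a secreted insulin-like growth factor binding protein of vessels, the fold enrichments were 7.70, 9.21, 5.34 and 15.2, and the summits lay 490, 522, 560 and 572 bp downstream of the TSS. The groups overlapped at both genes, since young 1 was the lowest library and old 2 or young 2 the highest. Rrs1 (ribosome assembly) had fold enrichments of 6.39, 5.02, 5.40 and 9.97 with a shared stretch of 203 bp. Tnip1 (a brake on NF-κB signalling) and Csnk2a1 (the catalytic subunit of casein kinase 2) shared only 5 and 14 bp among their 4 intervals. The other genes of this rank were Zfp988 (a zinc finger protein), Tmed3 (cargo transport), Cebpzos, Lnpep (an aminopeptidase of insulin-responsive vesicles) and Phip (a bromodomain protein), whose fold enrichments ranged from 4.26 in young 1 at Zfp988 to 12.1 in young 2 at Tmed3.

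The called intervals of a common promoter often lay at different bases. The intervals of all 4 libraries shared a base at 139 of the 486 genes, or 28.6% (95% exact Clopper-Pearson interval 24.6% to 32.8%, counting error only). This share was 52.6% of the 95 genes left at a q of at most 1e-05, and 45.5% when young 1, the library with the shortest list, was left out. Intervals that do not meet do not show that the polymerase was absent from the bases between them. Among the 486 genes the share with a common base was 46 of 93 (49.5%) at repeats and 93 of 393 (23.7%, 19.5% to 28.2%) elsewhere. Among common genes with 1 TSS it was 70 of 172 (40.7%). Where a base was shared, the median shared stretch was 141 bp, and the summits of the strongest peaks spanned a median of 273 bp across libraries, against 1186 bp where none was shared.

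**Figure D1:**
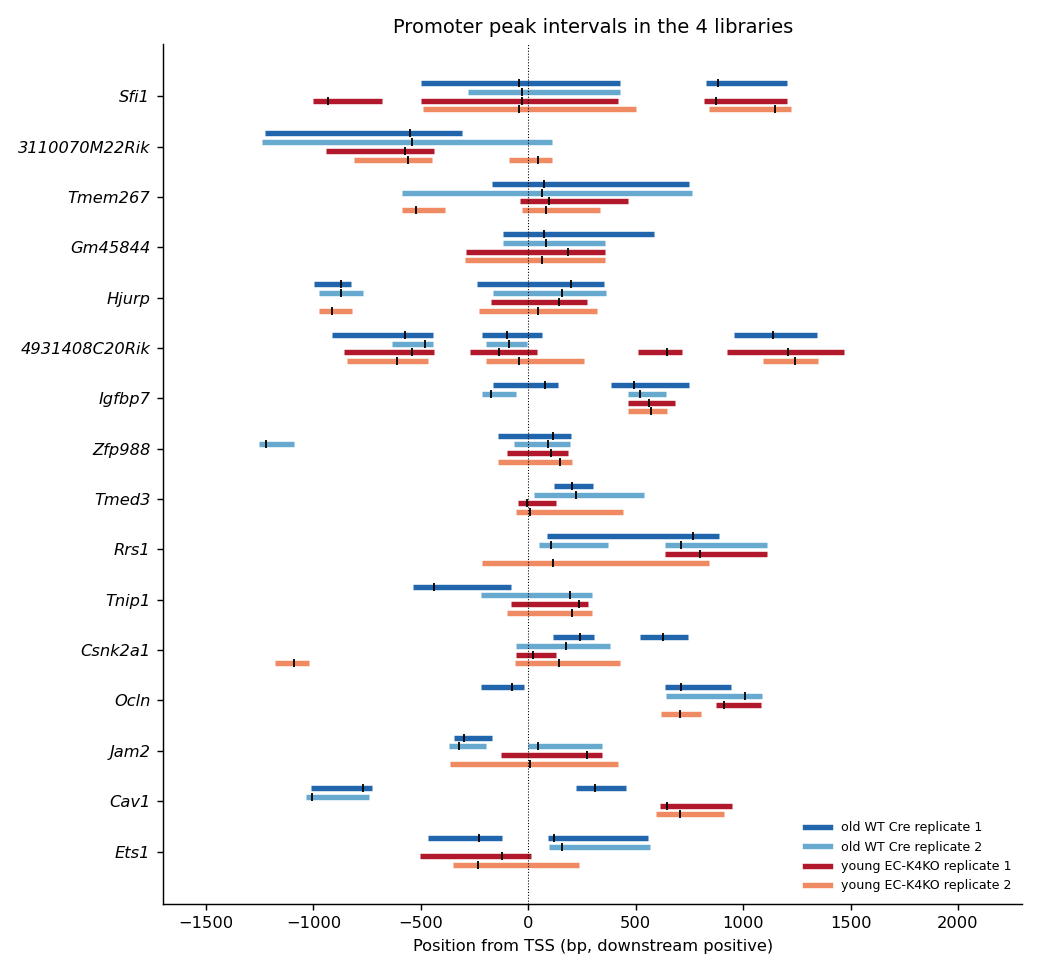
Intervals called at 12 promoters not at repeats with a base shared by all 4 libraries (top) and at 4 endothelial genes without one (Ocln, Jam2, Cav1 and Ets1), by position in bp from a TSS, with downstream to the right, 1 color per library and a tick at each summit. At Hjurp the 4 intervals cover a common 439 bp near the TSS, whereas at Cav1 the intervals of both young EC-K4KO libraries lie apart from those of the old WT Cre libraries, and 1 further Jam2 interval at another TSS falls outside the axis.

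Whether libraries of the same group were more alike in position than libraries of different groups could not be settled with 2 libraries each. Peaks overlapped by at least 1 bp at 304 of the 486 genes (62.6%) for the 2 old WT Cre libraries and at 352 (72.4%) for the 2 young EC-K4KO libraries. Between groups the lowest share was 53.9% (old 2 with young 1), and the highest was 84.0% (old 2 with young 2). The mean within groups minus the mean between groups was -0.67 percentage points (67.5% and 68.2%, exact permutation of the libraries among 3 possible pairings, one-sided, p = 0.6667, where the smallest p possible is 0.33). Leaving out old 1, old 2, young 1 or young 2 gave 5.35, 4.96, -14.6 and 8.37 points, and the sign also turned under 7 settings that kept all 4 libraries.

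Summits at the common genes clustered just downstream of the TSS, as they did at other genes. The median summit lay 114.5, 99.5, 51 and 71 bp downstream. For other genes with a promoter peak in the same library, leaving out peaks that also reached a common gene, the medians were 141, 133, 55 and 99 bp. Between 55.8% and 62.8% of the strongest peaks of common genes had a downstream summit, against 56.5% to 68.1% at other genes, and 39.5%, 46.7%, 39.5% and 47.3% lay within 250 bp of a TSS. The signed median positions were lower in both young EC-K4KO than in both old WT Cre libraries, at 61.0 ± 14.1 bp against 107.0 ± 10.6 bp (SD, n = 2 libraries each), a difference of -46 bp. The exact permutation test of this difference gave a two-sided p = 0.33, the smallest that 2 libraries against 2 allow. The median distance from the TSS on either side was 358.5, 283.5, 328.5 and 277 bp, so by distance the groups overlapped. At the 139 genes with a shared base the signed medians were 94, 93, 91 and 69 bp and their difference was -13.5 bp.

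**Figure D2:**
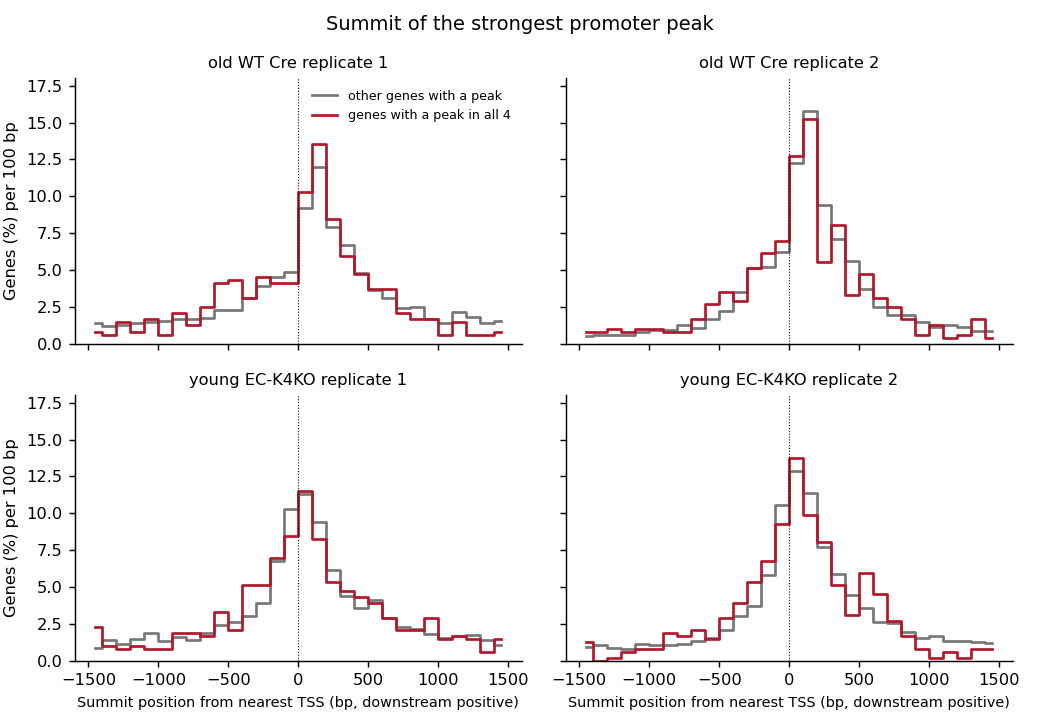
Share of genes (%) by the position of the summit of the strongest promoter peak from the nearest TSS, in bins of 100 bp, for common genes (red) and other genes with a promoter peak (grey) in each library. Both curves peak in the first 200 bp downstream, in the bin from 100 to 200 bp in the old WT Cre libraries and in the bin from 0 to 100 bp in the young EC-K4KO libraries.

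Common promoters had wider and more enriched peaks than other promoters in the same list. Their median widths were 287, 279.5, 217 and 420.5 bp, against 240, 230, 201 and 277 bp for other genes. Median fold enrichments were 4.32, 5.56, 4.42 and 7.55, against 3.94, 4.92, 4.14 and 5.74. The smallest gap was in young 1, the library with the fewest promoter peaks. Common genes also had more promoter peaks each, between 1.18 and 1.94 a library against 1.06 to 1.46, and more TSSs, so the strongest peak was taken from more candidates. Among genes with 1 TSS, and with repeats left out of the common genes, the widths were 296, 273, 223 and 462 bp for 128 common genes and 242, 229, 205.5 and 271 bp for other genes. Fold enrichments there were 4.13, 5.22, 4.18 and 7.80 against 3.94, 4.997, 4.14 and 5.66, so that gap was smaller in the old WT Cre libraries and small in young 1. Between groups neither measure separated. Width differed by 35.5 bp (283 ± 5.3 bp in old WT Cre and 319 ± 144 bp in young EC-K4KO, SD, n = 2 libraries each, two-sided exact permutation test, p = 1.0) and fold enrichment by 1.05 (4.94 ± 0.875 and 5.99 ± 2.21, p = 0.6667, same exact test). Both differences turned negative without young 2, to -64.2 bp and -0.46.

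**Figure D3:**
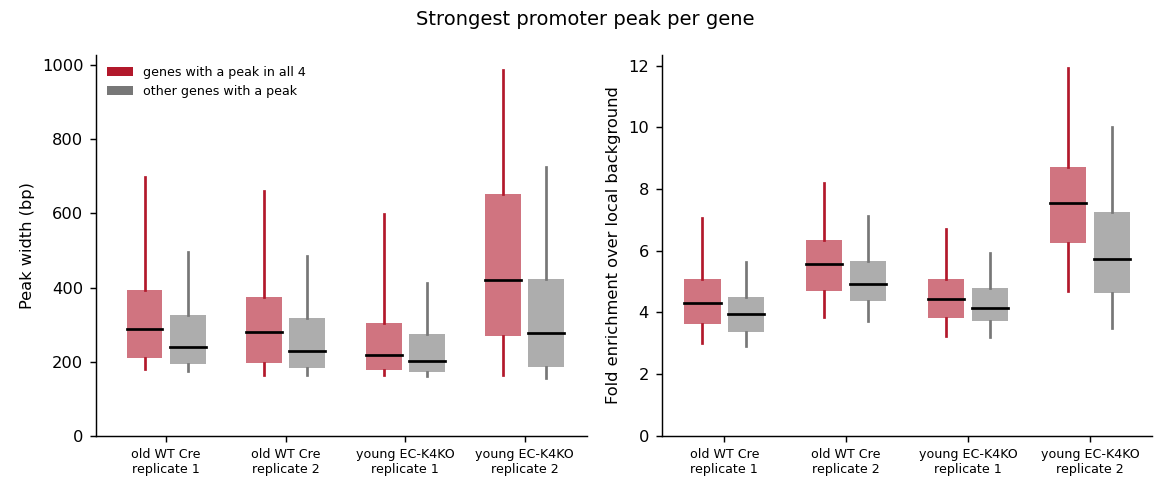
Width in bp (left) and fold enrichment over the local background (right) of the strongest promoter peak per gene in each library, for common genes (red) and other genes with a promoter peak (grey). Boxes span the quartiles, black lines are medians and thin lines reach the 5th and 95th percentiles over genes. The red median is above the grey one in each library, most in young 2 (420.5 against 277 bp).

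Each promoter peak was also given its percentile by −log10 q among promoter peaks of its own library. The lists held 5852, 5376, 2280 and 20089 promoter peaks, so these percentiles depend on how many peaks a library called and are not read here as a difference between groups. Both young EC-K4KO libraries ranked above both old WT Cre libraries at 94 genes (19.3%), and both ranked below at 50 genes (10.3%). The other 342 overlapped. The median percentile of the common genes was 64.9, 67.5, 51.2 and 83.9 in the libraries as ordered above (old WT Cre 66.2 ± 1.85, young EC-K4KO 67.5 ± 23.1, SD, n = 2 libraries each, two-sided exact permutation test, p = 1.0). The lowest median was in the shortest list and the highest in the longest.

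Genes with common promoters were long. Their median length was 37.4 kb (quartiles 15.03 and 106.8 kb, 95% interval of the median 31.9 to 45.3 kb over genes), against 17.1 kb for the 21378 other protein-coding genes (quartiles 6.43 and 44.1 kb). Median length rose with the number of libraries that had a promoter peak, from 9.16 kb with none to 16.1, 25.1 and 33.7 kb with 1, 2 and 3. Genes over 100 kb made up 27.0% of the common genes and 11.01% of the others. Common genes had more TSSs, a mean of 2.48 against 1.88, and more TSSs give more windows in which a peak can fall. Within genes of 1 TSS the medians were 21.9 kb for 172 common genes, 22.7 kb for genes with peaks in 3 libraries and 12.9 kb for all 10493 others, and with 4 or more TSSs they were 69.8 and 36.7 kb. The 93 genes at repeats had a median of 15.03 kb (95% interval 7.87 to 21.9 kb), which spans that of other genes, and the remaining 393 had a median of 46.6 kb. Genes over 1000 kb among them, named after their lengths were seen, included Dlg2 (a synaptic scaffold, 1973 kb), Prkg1 (a cGMP-dependent kinase, 1201 kb), Auts2 (1106 kb) and Nrg3 (an ErbB4 ligand, 1104 kb).

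**Figure D4:**
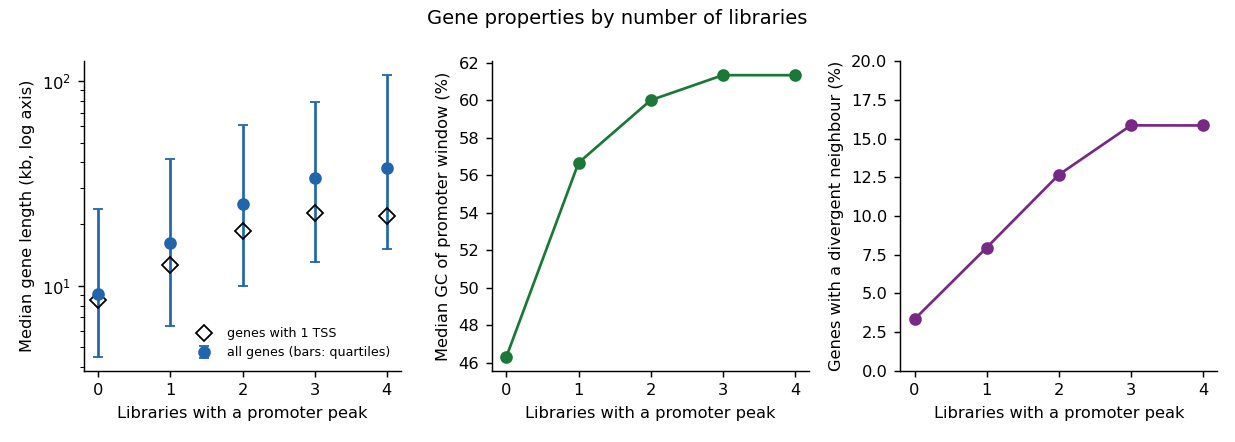
Gene properties by the number of libraries with a promoter peak (0 to 4, where 4 are the common genes): median gene length in kb on a log axis with bars at the quartiles over genes and diamonds for genes with 1 TSS, median GC (%) of the promoter window, and the share of genes (%) with a divergent neighbour. Length rises from 9.16 to 37.4 kb, while GC and the divergent share level off between 3 and 4 libraries.

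The promoters of common genes not at repeats were rich in GC and CpG, with a median GC content of 63.0% and an observed over expected ratio of CpG of 0.802, whereas those at repeats had 50.3% and 0.578. TATAAA was in 6.62% of the former and 20.7% of the latter. Together, in the window from 250 bp before to 50 bp after 1 TSS per gene, 485 common genes had a median GC content of 61.3%, against 55.7% at 21362 other genes, 61.3% with peaks in 3 libraries and 46.3% with none. The CpG ratio was 0.776, against 0.549, 0.750 and 0.211. A GC box (GGGCGG, both strands), which Sp factors bind, was present in 288 of 485 windows (59.4%), against 45.4% of all windows and 61.0% of those of genes with peaks in 3 libraries. The KLF word (GGGNGTGG, both strands), the class bound by Klf4, was in 18.8%, against 19.2% of all windows. The ETS word (CCGGAAG, both strands), bound by the factors that pattern endothelium, was in 12.4% against 11.2%, below the 16.4% of genes with peaks in 3 libraries. It was in 9.51% of the windows of common genes without a shared base and in 19.6% of those with one. TATAAA was in 9.28% against 12.6%, CCAAT (NF-Y) in 36.5% against 38.6% and the AP-1 word TGANTCA in 3.09% against 6.69%. The other words follow, with the share of common and then of all windows, all on both strands. CACGTG (E-box) was in 9.48% and 7.72% (9.56% with peaks in 3 libraries). TGACGTCA (CRE) was in 3.92% and 2.49% (4.03% with peaks in 3 libraries). AAGATGGCG (YY1) was in 3.09% and 1.86% and GCGCATGCG (NRF1) in 2.89% and 2.50%. A match is a description of the letters and not a bound site.

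Many common promoters served a gene on each side. A protein-coding TSS on the opposite strand lay within 1000 bp upstream for 15.8% of the common genes and 8.85% of the others, while genes with peaks in 3 libraries had the same 15.8%. At 49 loci 2 common genes, and at 1 locus 3, were reached by the same peak, so the 486 genes stood for 435 separate loci. Hspd1 and Hspe1, which encode the mitochondrial chaperonin and its partner, were such a pair, and their fold enrichments were 4.32, 5.94, 3.79 and 8.58. Others were Ndufs1 and Eef1b2, Lig1 and Zswim9, Esf1 and Ndufaf5, and Snrpn and Snurf, which overlap on 1 strand.

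Across 18 functional lists, the share of genes with a common promoter was largest for heat shock proteins and chaperones, at 4 of 23 (17.4%) beside 2.22% of all protein-coding genes. The 4 were Hspa2, Hspa9 (the mitochondrial Hsp70), Hspd1 and Hspe1, of which the last pair shared its peaks, so that they stood for 3 loci. None of the 4 had a base shared by all 4 libraries. At Hspa9 the strongest summits lay at 143, -100, -493 and -78 bp from a TSS. Replication-dependent histones followed with 9 of 65 (13.8%), but all 9 were counted at repeats and 3 pairs of them shared a peak (Hist1h3a with Hist1h4a, Hist1h2ad with Hist1h2bf, and Hist1h2ai with Hist1h3h), as did Hist2h2aa1 with Hist2h3c1. Hist1h1c was the other. Near-identical histone copies can split or share reads, so these values are uncertain. Ubiquitin genes and conjugating enzymes had 3 of 32 (9.38%): Uba2 (SUMO activation), Ube2b and Ube2d3. RNA splicing and processing had 2 of 38, Ddx5 (an RNA helicase) and Srsf1 (a splicing factor), and DNA damage sensing and repair 1 of 32, Lig1 (DNA ligase 1). The nuclear-encoded respiratory chain had 3 of 64, Cycs (cytochrome c), Ndufs1 (complex I) and Uqcrc2 (complex III). Histone-modifying enzymes had 2 of 44, Ep300 (the p300 acetyltransferase) and Kdm5a (a demethylase of histone H3 lysine 4).

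**Figure D5:**
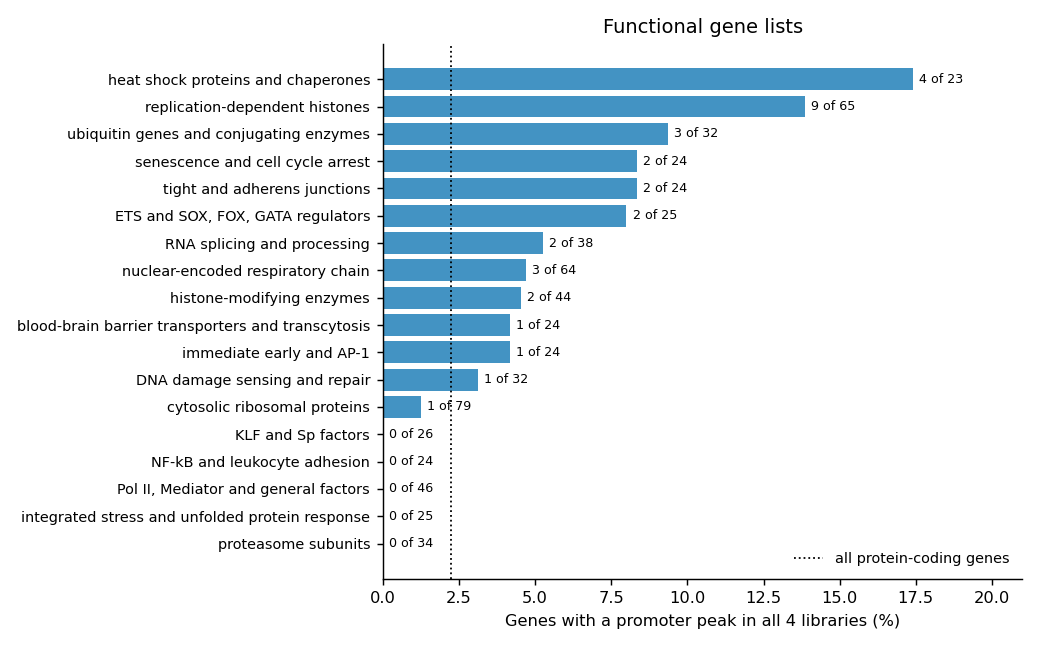
Share of each functional list (%) reached by a peak in every library, at any place in the promoter window, with the counts beside the bars and the share of all protein-coding genes (2.22%) as a dotted line. Heat shock proteins and replication-dependent histones have the largest shares, and 5 lists have 0.

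Of the lists that bear on brain endothelium, tight and adherens junctions had 2 of 24 genes (Ocln and Jam2), barrier transporters and transcytosis 1 of 24 (Cav1), ETS, SOX, FOX and GATA regulators 2 of 25 (Ets1 and Elf2) and senescence and cell cycle arrest 2 of 24 (Gadd45a and Igfbp7). Beside the 2.22% of all protein-coding genes, counts of 1 or 2 in lists of this size are not a result about the lists. Occludin (Ocln), a membrane protein of tight junctions, had fold enrichments of 4.32, 9.80, 6.06 and 7.23, so the groups overlapped. Jam2, a junctional adhesion molecule, had 4.13, 5.59, 5.20 and 7.59, and the groups overlapped. Cav1, the coat protein of caveolae, had 3.76, 3.73, 4.35 and 6.49. These values are of different sites, since the summits lay at -769 and -1007 bp from the same TSS in the old WT Cre libraries and at 644 and 705 bp in the other group. Ets1, an endothelial transcription factor, had 5.07, 7.46, 4.996 and 7.95, with overlapping groups. Its summits lay at 119 and 156 bp from a TSS in the old WT Cre libraries and at -121 and -232 bp in the young EC-K4KO libraries. Elf2, a related factor, had 5.07 in old 1 and 8.61 in young 2 near one TSS, and 5.72 in old 2 and 4.18 in young 1 near another, so these are values of different promoters. Gadd45a, a gene of growth arrest, had 3.76, 5.97, 4.78 and 6.48, again with overlap. None of these 6 genes had a base shared by all 4 libraries, so the fold enrichments of a gene need not be of 1 site. Nr4a2, a nuclear receptor and the 1 common gene of 24 in the immediate early list, had 5.45, 5.52, 5.10 and 9.14, where the old 2 peak lay at another TSS than the other 3, so the values do not compare 1 promoter.

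Rps29 was the only cytosolic ribosomal protein gene of 79 with a common promoter. A promoter peak was present at 21, 27, 8 and 67 of the 79 in the single libraries, beside 25.6%, 24.5%, 10.7% and 67.5% of all genes. Its fold enrichments were 9.20, 4.24, 14.4 and 48.4, and its strongest peak was repetitive in 2 of the 4 libraries. The old 2 value is of another site, with its summit at 363 bp from the TSS. The summits in old 1, young 1 and young 2 lay at -132, -131 and -149 bp. No gene was common in the lists of Pol II, Mediator and general factors (0 of 46), proteasome subunits (0 of 34), KLF and Sp factors (0 of 26), the integrated stress and unfolded protein response (0 of 25) or NF-κB and leukocyte adhesion (0 of 24). With 2.22% of all protein-coding genes common, a count of 0 or 1 in lists of these sizes is near the share over all genes.

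Membership at the edge rested on peaks just past the authors' cutoff of q = 0.01. Eef1akmt2 entered with a −log10 q of 2.13 in young 2, and Ywhae and Fam155a with 2.02 in old 1. The next lowest rank was a tie of 11 genes, among them Upf2 and Sgpp2, at 2.01 in young 1. Just outside the window were Grip1 and Urod, with a peak edge 1505 and 1512 bp from a TSS in young 1, and Rcl1, at 1515 bp in old 1.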

How the data were processed

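Pol II ChIP-seq peak lists were analysed from 2 libraries a group (old WT Cre, young EC-K4KO), made from chromatin cut with MNase. Per the study's methods, the authors trimmed reads, aligned them to mm10 with Bowtie2 and removed duplicates. Peaks were called for each library on its own with MACS 2.2.7.1, at a q cutoff of 0.01 and, per the file headers, with no control library and with any remaining duplicates kept. Local fold enrichment and pileup therefore keep effects of copy number, mappability and duplicates. The deposited tables give the pileup (a coverage signal in fragments), the fold enrichment (a ratio to the local background) and −log10 of the p-value and q-value of each peak. The deposited narrow peak and summit files held the same intervals, fold enrichments and summits for all peaks and were not used further.

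Intervals were joined to 41451 protein-coding TSSs of the GENCODE M21 basic annotation, 1500 bp on either side, using scipy 1.17.1, pandas 2.3.3, numpy 2.4.6 and numba 0.67.0 under Python 3.11.15. The strongest peak by −log10 q stood for a gene in a library, or the peak over the shared stretch where one existed and a gene is named with widths, pileups or summits. Copies were counted for 50-base words of GRCm38.p6, taken at 7 places around each summit. RefSeq promoter entries matched 352 of the 486 genes, so windows and sequences were read from the genome. The join recovered 1034 of 1034 planted genes in simulated data.

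The genes, lists, motifs and tests were chosen with earlier results of these data known. Named genes were the 15 best and 5 weakest by rank, the 3 nearest outside the window, list members, the 5 widest and 5 tallest, and Klf4, and any other named gene was picked after its values were seen. Groups were compared over libraries by exact permutation, and p-values measure the spread between libraries, which may be technical. Other settings tried were a smaller q, a floor on fold enrichment, lists of equal length, 2 other windows, summits in place of intervals, 1 TSS per gene, all annotated genes, autosomes alone, leaving out each replicate and, added after seeing the data, leaving out repeat peaks.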

Additional observations from a re-analysis of the deposited data

How the results depend on the processing

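The number of common genes was 95 at q of at most 1e-05, 195 at a fold enrichment of at least 4, 214 with lists cut to the shortest, 284 and 746 with windows of 500 and 3000 bp and 782 over all annotated genes. Leaving out a replicate gave 508 to 2018. The share with a base common to all libraries, in the same order, was 52.6%, 38.0%, 32.7%, 41.5%, 23.5% and 36.5%, with 34.0% for 1 TSS per gene, 23.8% without repeat peaks and 34.4% to 45.5% without 1 replicate, where only 3 intervals had to meet. Median gene length was 31.7 kb at the stricter q, 46.9 kb at the fold enrichment minimum, 31.6 kb with 1 TSS per gene, 16.5 kb over all annotated genes and 46.9 kb without repeat peaks, and 34.9 to 37.2 kb without 1 replicate. The within minus between group share, -0.67 points as reported, turned positive at the stricter q (5.0), the fold enrichment minimum (0.128), equal lists (1.87), the 500 bp window (1.76), summits (0.162), 1 TSS per gene (0.262) and all annotated genes (0.895), and ranged from -14.6 to 8.37 without 1 replicate. Without young EC-K4KO replicate 2 the young minus old differences in width and fold enrichment were -64.2 bp and -0.46, and without 1 replicate they ranged from -64.2 to 105.5 bp and from -0.46 to 2.07. The young minus old summit position, -46 bp as reported, stayed negative under every alternative but shrank to -24.5 bp with equal lists and -28.5 bp over all annotated genes. The cause of these shifts was not tested. No paired analysis was possible because each value is a set overlap or a median per library with no model fitted over samples, and the labels tie no library of one group to one of the other.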

Other observations

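Values of 3 further genes with common promoters, picked after their values were seen and from no fixed list, are given without a comparison. Fzd4, the receptor for norrin in brain vessels, had fold enrichments of 3.19 (old 1), 5.03 (old 2), 4.59 (young 1) and 8.57 (young 2). Efnb2, an arterial ephrin, had 3.94, 6.08, 4.06 and 6.30. Lamc1, a laminin chain of the basement membrane, had 3.38, 6.63, 4.73 and 6.25, and its 4 intervals shared a base.

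Between positions 145510759 and 147809788 of a zinc finger cluster on chromosome 4, bounds set by common genes themselves so that the share is raised by construction, 10 of 21 protein-coding genes had a common promoter, 8 of them with a shared base, and 9 of the 10 were counted at repeats. Chromosome 18 had the largest share (27 of 511 genes, 5.28%) and X the smallest of the nuclear chromosomes (2 of 948, 0.211%), beside 2.22% of all genes. Olfactory receptor genes had 3 of 1134 (0.265%) and vomeronasal receptors 0 of 331.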
